A study of Homo sapiens with 6 samples.

Results

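The libraries described here came from T24 cells, a human bladder cancer line, transfected with si-circ235-1 or si-circ235-2, a pair of small interfering RNAs (siRNAs) of different sequence against the looping site of the circular RNA circ235. They were chosen by their labels and make up 4 of the 6 libraries of the series, with 2 biological replicates per siRNA, called si1a and si1b for replicates 1 and 2 of si-circ235-1 and si2a and si2b for those of si-circ235-2. The others, 2 libraries, came from T24 cells transfected with a control siRNA (NC) and entered the fit, where they add to the estimate of spread between replicates. All 6 libraries thus came from transfected cells of a single line, and the labels give no dose of siRNA and no time after transfection. The question was which genes and processes separate the siRNAs when they are set directly against each other.

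A siRNA is loaded into an Argonaute protein, where its guide strand directs the cleavage of RNA that matches it along its whole length. A guide can also lower other mRNAs through a match of its seed, the bases near its 5′ end, to their 3′ UTRs, as a microRNA does. A pair of siRNAs against the same target should share the effects of losing the target, to the degree that each lowers it. Effects through other transcripts belong to each sequence. Circular RNAs lack a poly(A) tail, and RNA was selected here on oligo dT beads. Thus circ235 itself was not measured, and the extent of its knockdown cannot be read from these libraries. The paper reports that, by qRT-PCR, knockdown was stronger with the siRNA that it kept for follow-up, which is named below. The part of unequal knockdown, or of effects through other transcripts, in the differences described below was not tested.

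The junction shared by both siRNAs as their target is shown to place them on their host gene. On the plus strand of chromosome 10 (GRCh38), the circle spans 35516523 to 35530243 and joins CCNY-203 exons 4 to 7 into a ring of 315 nucleotides. The last 15 bases of exon 7 are in lower case and the first 15 of exon 4 in capitals, 5′ to 3′:
circ235 junction: gccatcgtcaccctgCATCCTCCAGGACAA
The microRNA miR-330-5p, proposed to bind circ235, is shown for its seed (bases 2 to 8, in capitals), whose match is followed across 3′ UTRs at the end of the results:
miR-330-5p: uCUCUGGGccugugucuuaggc

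The libraries held 15373992 to 19912893 counts. Replicates differed by more than sampling noise (chi-square over its degrees of freedom, 28.6 for si-circ235-1 and 23.9 for si-circ235-2), so each was kept as a sample. The Euclidean distance in log2 CPM was 69.4 between the si-circ235-1 libraries, 66.3 between the si-circ235-2 libraries and 113 to 138 from one siRNA to the other. The epithelial markers KRT7, KRT8, KRT18 and CD44 had 8507 to 41324 counts in every library. KRT5, KRT13, KRT14, KRT20, UPK3A and TP63 had 0 to 4 counts, and UPK1A, UPK1B and UPK2 1 to 15. The epithelial genes CDH1 (0 to 6 counts), KRT19 and GRHL3 (0 to 1), KRT6A (0), EPCAM (22 to 48) and KRT17 (6 to 49) were low too. Of the remaining factors on this marker list, GATA3 had 1 to 20 counts, FOXA1 24 to 58, KLF5 86 to 207, ELF3 354 to 432 and PPARG 353 to 1069. PTPRC, CD3E and LYZ of blood cells, COL3A1 and LUM of fibroblasts and MYH11 of smooth muscle had 0 counts in all 6 libraries, while COL1A1 had 8 to 21, ACTA2 2 to 15 and the endothelial CDH5 5 to 41.

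Of the 14415 genes that passed the filter on low counts, the quasi-likelihood test of edgeR, adjusted by Benjamini-Hochberg, called 5725 (39.7%) between the siRNAs at an adjusted p under 0.05. Under si-circ235-2, 3047 genes were higher (21.1%) and 2678 lower (18.6%) than under si-circ235-1. A difference of at least 2-fold was called for 3397 genes (23.6%), of which 1898 were higher (13.2%) and 1499 lower (10.4%). The libraries of the siRNAs did not overlap for 10390 genes (72.1%), with si-circ235-2 above for 38.4% of all genes and below for 33.7%. The split depended on the scaling, since the median over all genes tested moved from 0.04 with TMM factors to 0.37 without them, and 75.2% of the calls were then higher, against 53.2%. It was 42.5% once each library had been corrected for smooth dependence on transcript length and GC content (the trend removed, below). Of the 3047 genes called higher, 2104 (69.1%) were called higher under both of these alternatives, and of the 2678 called lower, 1399 (52.2%) were called lower under both. Without si1b, the library farthest from si-circ235-2, the number of calls was 2755. In bulk RNA, fewer cells in a given state and less RNA per cell cannot be told apart.

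**Figure D1:**
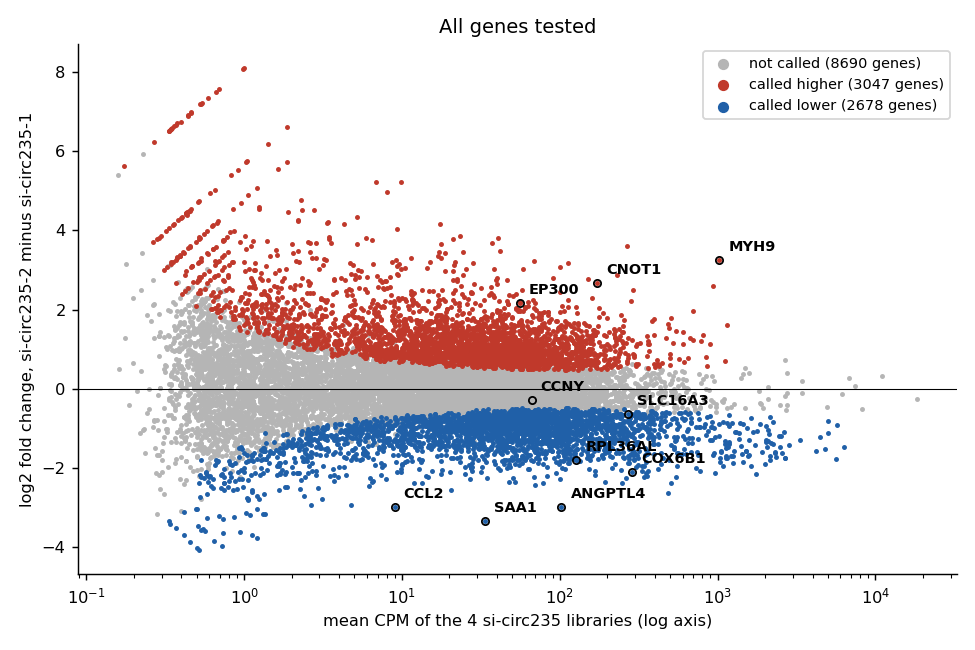
Log2 fold change of si-circ235-2 minus si-circ235-1 (vertical axis) against the mean CPM of the 4 si-circ235 libraries (log axis) for the 14415 genes tested, with called genes colored and some named genes labelled. The 3047 higher and 2678 lower genes occur at all levels. Lower calls were 6.21% of the 20% of genes with the lowest mean CPM and 36.9% of the highest 20%. MYH9 stands out among abundant genes at 3.24.

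Transcript length moved with the direction of the difference. Among the 20% of genes with the shortest transcripts (up to 1822 nucleotides), 37.8% were called lower and 6.95% higher under si-circ235-2, and the median difference was -0.61 on the log2 scale. Among the 20% with the longest (at least 5647 nucleotides), 6.08% were lower and 37.1% higher, with a median of 0.42. Genes whose longest transcript reached 5 kb took 22 and 25.5% of the counts under si-circ235-2, 15.6 and 15% under si-circ235-1 and 14.4 and 16.9% in NC. Genes under 1 kb took 5.81 and 5.13% under si-circ235-2, 8.5 and 9.08% under si-circ235-1 and 9.24 and 7.64% in NC. Both si-circ235-2 libraries were thus apart from all others in both shares. By GC content, the medians were highest in the middle 20%, at 0.26, and lowest in the 20% of highest GC, at -0.25. With the trend removed, the median was -0.24 in the shortest and -0.03 in the longest 20%, and the median after this removal is given below beside each list of genes, with its calls where a count moved by more than 1.5 times. The part of RNA quality or library preparation in this trend was not tested.

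**Figure D2:**
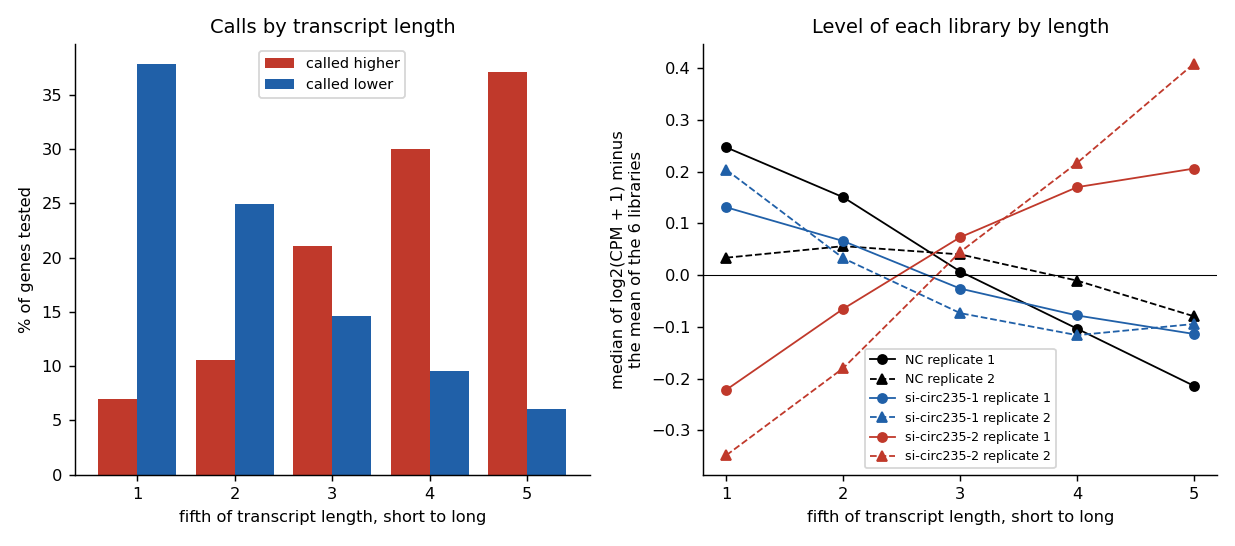
Left, percent of genes called higher (red) or lower (blue) under si-circ235-2 in each 20% of genes by transcript length, from short to long. Right, the median of log2(CPM + 1) in each library after subtracting each gene's mean over the 6 libraries. Lower calls fell from 37.8 to 6.08% and higher calls rose from 6.95 to 37.1% with length, and the si-circ235-2 lines slope upward, from -0.22 and -0.35 to 0.21 and 0.41, while the other 4 slope downward.

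CCNY, the host gene of circ235, encodes cyclin Y and lies on chromosome 10 from 35247025 to 35572669. The linear mRNA stood at 78.1 and 67.4 CPM under si-circ235-1, 63.9 and 55.5 under si-circ235-2 and 61.3 and 65.2 in NC. The si-circ235-2 libraries were below those of si-circ235-1, but the log2 fold change of -0.28 ± 0.18 (SE) was not called (adjusted p = 0.238), while it was 0.05 without TMM factors and -0.76 with the trend removed, where it was called (adjusted p = 0.00416). SLC16A3 encodes MCT4, the lactate exporter that the study places downstream of circ235 (chromosome 17, 82228397 to 82261129, plus strand). It had 375 and 280 CPM under si-circ235-1, 229 and 194 under si-circ235-2 and 436 and 311 in NC. SLC16A3 was lowest under si-circ235-2 without overlap, with a log2 fold change of -0.63 ± 0.23 and an adjusted p of 0.0491. With the trend removed it was -0.84 (adjusted p = 0.00258). It was not called without TMM factors (adjusted p = 0.246) or without any 1 of the 4 si-circ235 libraries (adjusted p = 0.0606 to 0.284). Its exons overlap CSNK1D on the opposite strand, and the sequencing kept no strand.

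The other genes that the study followed downstream of circ235 separated the siRNAs in opposite directions. By the paper's account si-circ235-1 lowered circ235 more than si-circ235-2 did in each cell line tested. Its follow-up experiments therefore used si-circ235-1, while its sequencing used both siRNAs. PAK4, a kinase that acts on the actin cytoskeleton (chromosome 19, 39125770 to 39182816), had 38.7 and 26.1 CPM under si-circ235-1, 72.9 and 59.9 under si-circ235-2 and 117 and 106 in NC. It was 1.04 ± 0.22 higher on the log2 scale under si-circ235-2 (adjusted p = 0.00449), the adjusted p was 0.0533 without si1b, and with the trend removed it was 0.63 higher (adjusted p = 0.0113). CPNE1, a calcium-dependent membrane-binding protein (chromosome 20, 35626031 to 35664956), had 380 and 382 CPM under si-circ235-1, 174 and 136 under si-circ235-2 and 515 and 403 in NC. Its log2 fold change was -1.30 ± 0.21 (adjusted p = 0.00134) and -1.26 after the trend was taken out. CPNE1 shares exons with RBM12 on the same strand, so reads of these genes may be split between them.

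Among genes averaging at least 100 CPM, the largest rise after that of MT-ND4L, described with the mitochondrial mRNAs, belonged to MYH9, the heavy chain of non-muscle myosin IIA, which drives contraction of the actin cortex. It stood at 234 and 159 CPM under si-circ235-1, 1800 and 1914 under si-circ235-2 and 569 and 721 in NC. The groups were far apart, with NC between the siRNAs, and the log2 fold change was 3.24 ± 0.27 (adjusted p = 0.000379), or 9.46-fold. WASF2, an activator of the Arp2/3 complex in lamellipodia, had 28.6 and 16.1 CPM under si-circ235-1 and 196 and 209 under si-circ235-2 (3.19 ± 0.27). CAP1, which recycles actin monomers, had 57.4 and 20.1 CPM under si-circ235-1 and 266 and 259 under si-circ235-2 (2.76 ± 0.47). ITPR3, a calcium release channel of the endoplasmic reticulum, had 71.1 and 39.8 against 383 and 423 CPM (2.86 ± 0.33). Both si-circ235-1 libraries were below both NC libraries for MYH9, WASF2 and ITPR3, while for CAP1 NC replicate 1, at 50.9 CPM, lay between them. All 4 remained called with the trend removed, at 2.36 to 2.76, and without TMM factors, at 3.09 to 3.58.

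Among called protein-coding genes averaging at least 5 CPM, with no overlap between the siRNAs, the 12 largest rises ran from 3.66 to 5.23 on the log2 scale. TSTD2, which carries a sulfurtransferase domain, had 0.490 and 0.223 CPM under si-circ235-1 and 11.3 and 15.2 under si-circ235-2. SINHCAF, a subunit of the SIN3 histone deacetylase complex, had 0.909 and 0.167 against 16.5 and 22.1 CPM. MARF1, an RNA-degrading protein of germ cells and other tissues, had 0.350 and 0.614 against 14.9 and 16.4 CPM. These genes were close to absent under si-circ235-1 and clearly counted under si-circ235-2, with NC at 0.722 to 4.09 CPM. Exons of TSTD2 overlap TMOD1 and those of MARF1 overlap BMERB1, each on the opposite strand. Without strand, some of their reads may belong to these neighbours. The other rises were ZNF770, PCDHGC3, MT-ATP8, SEC24C of the COPII coat, GARRE1, the cell polarity scaffold DLG5, the nuclear pore protein POM121, ABR and GATAD2B of the NuRD complex. ZNF770 varied most, with 3.48 and 16.2 CPM under si-circ235-2, and lost its call without si1b (adjusted p = 0.0887). PCDHGC3 shares exons with PCDHGA10, and MT-ATP8 with MT-ATP6, so that their counts depend on how shared reads were assigned. Exon overlap with another tested gene on the same strand was found for 8.84% of the 509 genes called at least 4-fold higher, 1.16% of the 172 called at least 4-fold lower and 4.59% of all genes tested.

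The largest fall by the same limits was that of an acute phase protein. SAA1, serum amyloid A, had 57.1 and 65.3 CPM under si-circ235-1, 7.43 and 4.68 under si-circ235-2 and 54.8 and 29.4 in NC (-3.34 ± 0.33, adjusted p = 0.000391). ANGPTL4, a secreted inhibitor of lipoprotein lipase, had 195 and 169 CPM under si-circ235-1, 23.9 and 22.2 under si-circ235-2 and 86.5 and 63.1 in NC (-2.98 ± 0.22, adjusted p = 0.000211). SAA1 was lower than NC under si-circ235-2 alone, while ANGPTL4 lay above NC under si-circ235-1 and below it under si-circ235-2, with no overlap of the 3 groups. CCL2, a chemokine for monocytes, had 14.3 and 17.5 CPM under si-circ235-1, 2.60 and 1.48 under si-circ235-2 and 4.79 and 4.28 in NC. LCN2, the iron-carrier-binding protein lipocalin 2, had 797 and 892 CPM under si-circ235-1, 184 and 141 under si-circ235-2 and 269 and 180 in NC. For LCN2, CD14 and S100A3 the si-circ235-1 libraries stood above all 4 others, and those of si-circ235-2 were nearer to NC. CD14, a coreceptor for lipopolysaccharide, had 11 and 9.94 CPM under si-circ235-1 and 2.12 and 1.72 under si-circ235-2, and was the only blood cell marker of 12 that passed the filter. The adaptor subunit AP2S1 (-2.64 ± 0.31), PHLDA2, NAA38, the histone gene H2BC4, the RNA polymerase subunit POLR2L and the complex II assembly factor SDHAF2 made up the rest of the 12, all at -2.36 or below. All 12 were called with the trend removed, at -1.81 to -3.09.

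**Figure D3:**
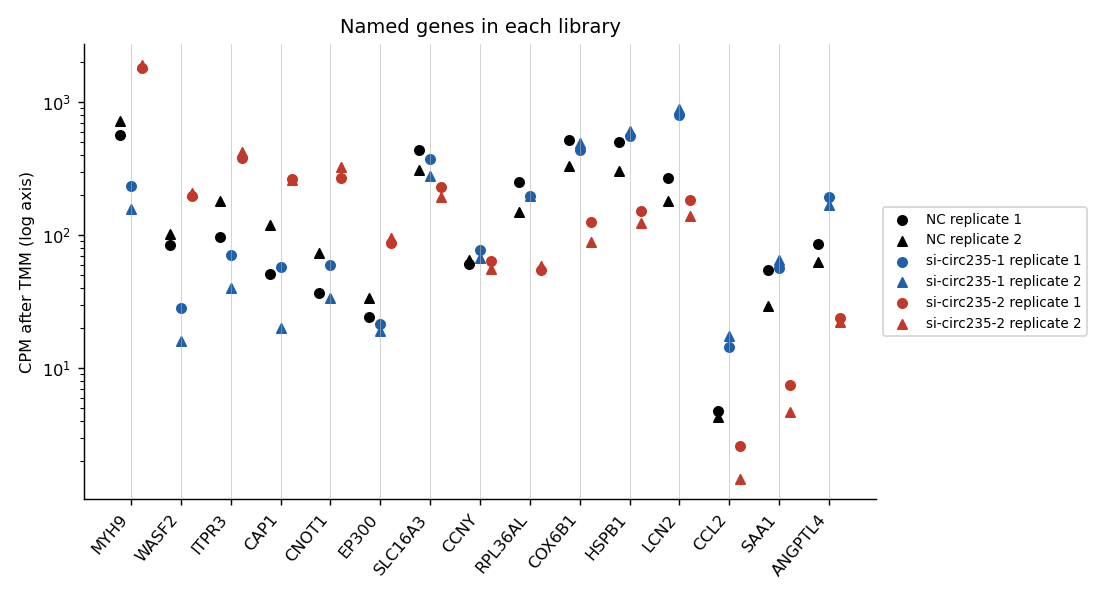
CPM after TMM (log axis) of 15 named genes in each of the 6 libraries, with NC in black, si-circ235-1 in blue and si-circ235-2 in red, circles for replicate 1 and triangles for replicate 2. From MYH9 to EP300 the red points lie above the blue, and from RPL36AL to ANGPTL4 below them, while the points of CCNY lie within 55.5 to 78.1 CPM.

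The genes of 31 lists, grouped by process, were then followed as counts of calls and medians, read against 21.1% higher and 18.6% lower among all genes. With the trend removed, 17.2% of all genes were called higher and 23.2% lower, and their median was -0.08. List values with the trend removed are read against these. A list median between -0.08 and 0 then lay below 0 but above that of all genes. Direction also moved with level. Of the 20% of genes with the highest mean CPM over the 4 si-circ235 libraries, 36.9% were called lower and 19.6% higher. Their median was -0.24, and -0.33 with the trend removed. Of the 20% with the lowest mean CPM, 6.21% were lower and 13.8% higher, with a median of 0.23. Lists of abundant genes were not compared with genes of like level. Without TMM factors every list had at least as many higher and at most as many lower calls as with them, as did all genes together (4534 higher and 1496 lower). The list medians ran from -1.39 for cytosolic ribosomal proteins to 0.98 for chromatin modifiers. Of the lists, 45.2 to 90.7% of tested members were called lower for cytosolic and mitochondrial ribosomal proteins, respiratory chain subunits, the proteasome, histones, and NRF2 targets with metallothioneins. The medians of each of these lists were below 0 under all 3 treatments of the counts shown in the plot of list medians.

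**Figure D4:**
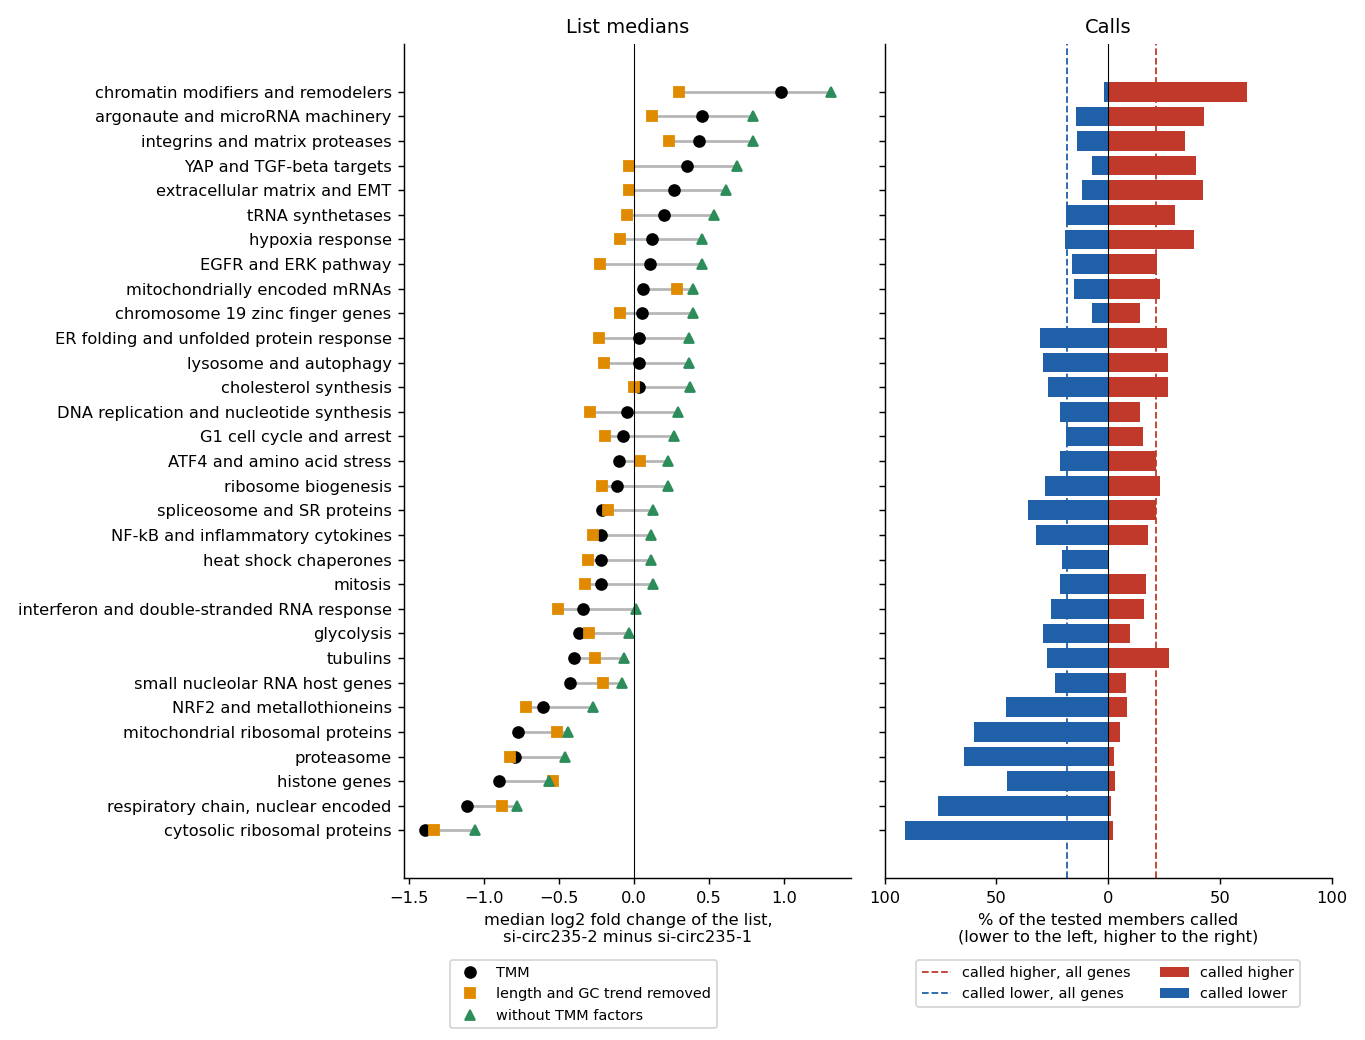
Left, the median log2 fold change of each of 31 gene lists with TMM factors (black), with the length and GC trend removed (orange) and without TMM factors (green). Right, the percent of tested members called lower (left, blue) or higher (right, red), with dashed lines at 18.6 and 21.1% for all genes. Cytosolic ribosomal proteins lie lowest, between -1.39 and -1.06, and chromatin modifiers highest, between 0.30 and 1.32.

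Cytosolic ribosomal proteins, which with ribosomal RNA form the translating ribosome, were lower under si-circ235-2 almost throughout. Of 89 listed genes 86 were tested, 78 were called lower (90.7%) and 2 higher, with a median of -1.39. Their summed level was 167539 and 205829 CPM under si-circ235-1, 79159 and 62899 under si-circ235-2 and 200496 and 134814 in NC. Both si-circ235-2 libraries were thus below the other 4. Large subunit genes (45 of 51 lower, median -1.39), small subunit genes (30 of 32, -1.40) and the ubiquitin fusions with RACK1 (3 of 3, -1.40) moved alike. RPL36AL had 198 and 197 CPM under si-circ235-1 and 54.6 and 58.9 under si-circ235-2 (-1.80 ± 0.24, adjusted p = 0.000683). RPL26L1 had 127 and 134 against 59.7 and 44.2 CPM (-1.33 ± 0.20), with NC at 60.1 and 58.1. The exceptions were RPL36A, at 1.19 and 2.12 against 4.54 and 3.63 CPM, which lost its call without si1a or si2a (adjusted p = 0.0951 and 0.092), and RPL7L1, a factor of ribosome assembly rather than a subunit. RPL7L1 was 0.02 with the trend removed (adjusted p = 0.902) and was not called without any 1 of the si-circ235 libraries (adjusted p = 0.0713 to 0.168). With the trend removed the list had 78 lower calls and a median of -1.33, without TMM factors 75 and -1.06, and 56 were lower without si1b. Ribosomal protein genes have many near-identical pseudogene copies, among which the counting may have split reads.

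Nuclear-encoded subunits of the respiratory chain, which build the complexes of oxidative phosphorylation, followed the same direction. Of 76 tested members 58 were called lower (76.3%) and 1 higher, with a median of -1.11, -0.88 with the trend removed and -0.78 without TMM factors. By complex, 30 of 37 genes of complex I, 8 of 9 of complex III, 10 of 10 of complex IV and 10 of 16 of the ATP synthase were lower, and 0 of 4 of complex II. COX6B1 of complex IV had 438 and 490 CPM under si-circ235-1, 127 and 88.2 under si-circ235-2 and 523 and 329 in NC (-2.11 ± 0.27, adjusted p = 0.000595). UQCRB of complex III had 174 and 207 against 57.1 and 61.2 CPM (-1.69 ± 0.22). For both, si-circ235-2 stood apart from si-circ235-1 and NC. SDHC of complex II, at 113 and 91.8 against 170 and 151 CPM, was the single higher call, at 0.65 ± 0.19 (adjusted p = 0.0184), but 0.08 with the trend removed (adjusted p = 0.789), and it was not called without si1b or si2a (adjusted p = 0.136 and 0.102).

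The mRNAs encoded by mitochondrial DNA, which provide the remaining subunits of the same complexes, did not share this direction. Their summed level was 52318 and 43704 CPM under si-circ235-1, 48831 and 42133 under si-circ235-2 and 45203 and 45160 in NC, which overlap. The median of the 13 mRNAs was 0.06 and 3 were called higher and 2 lower, against 0.29, 5 and 0 with the trend removed. It turned to -0.05 without si1b and -0.08 without si2a. MT-ND4L had 45.0 and 35.7 CPM under si-circ235-1, 436 and 552 under si-circ235-2 and 34.8 and 86.4 in NC (3.62 ± 0.37, adjusted p = 0.000391). MT-ATP8 had 1.47 and 0.726 against 15.6 and 19.6 CPM (4.03 ± 0.36). Each lies on a bicistronic transcript and overlaps its larger partner, MT-ND4 (0.06 ± 0.27, adjusted p = 0.874) or MT-ATP6 (-0.41 ± 0.24, adjusted p = 0.193), neither of which was called. MT-ND5 was the third higher call (1.62 ± 0.24). MT-ND3 (-1.12 ± 0.24) and MT-CO3 (-0.81 ± 0.28) were called lower. With the trend removed neither was called (adjusted p = 0.058 and 0.0622), and MT-CO3 lost its call without TMM factors (adjusted p = 0.102) and without each library but si2a (adjusted p = 0.0702 to 0.315).

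**Figure D5:**
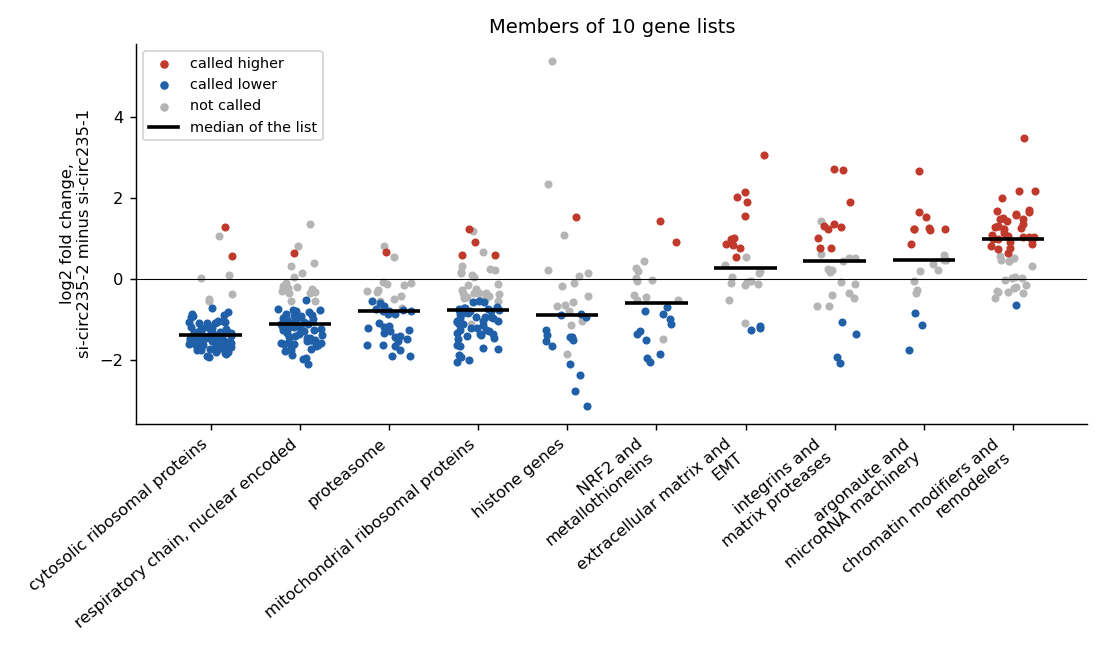
Log2 fold change of si-circ235-2 minus si-circ235-1 for each tested member of 10 lists, red where called higher, blue where called lower and grey where not called, with the median as a bar. The medians run from -1.39 for cytosolic ribosomal proteins to 0.98 for chromatin modifiers, and the single grey point at 5.39 is the histone gene H2BC13.

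Mitochondrial ribosomal proteins, which translate those mRNAs, were called lower for 47 of 78 members (60.3%) and higher for 4, with a median of -0.77, -0.51 with the trend removed and -0.44 without TMM factors. Without si1b the lower calls numbered 29. MRPL4 had 80.7 and 68 CPM under si-circ235-1, 21.1 and 15.9 under si-circ235-2 and 107 and 62.1 in NC (-2.01 ± 0.27, adjusted p = 0.000726). MRPL47 had 97.5 and 106 against 36.2 and 42 CPM (-1.38 ± 0.19). Both subunits took part, with 31 of 49 genes of the large and 16 of 29 of the small subunit lower. The 4 higher members included MRPL45 (0.91 ± 0.21) and MRPS27 (0.59 ± 0.19). MRPL45 was at an adjusted p of 0.0521 without si1b, and MRPS27 was 0.17 with the trend removed (adjusted p = 0.389) and not called without si1a, si1b or si2a (adjusted p = 0.0591 to 0.194). Of the 4 higher calls, 0 were left without si1b, 1 without si2a and 2 without si2b.

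The proteasome, which degrades ubiquitin-tagged proteins, was lower in its core particle above all. Of 42 tested members 27 were called lower (64.3%) and 1 higher, and the median was -0.79, -0.82 with the trend removed and -0.46 without TMM factors. In the core particle 14 of 17 genes were lower (median -1.26), against 11 of 20 in the regulatory particle (-0.58) and 2 of 5 assembly factors. The assembly chaperone PSMD5 was counted here with the regulatory particle. PSMB3 of the core had 622 and 766 CPM under si-circ235-1, 209 and 161 under si-circ235-2 and 544 and 373 in NC (-1.91 ± 0.25, adjusted p = 0.000653). POMP, which helps assemble the core, had 311 and 394 against 93.3 and 95.7 CPM (-1.90 ± 0.22), and -0.80 with the trend removed. PSMD5, an assembly chaperone of the regulatory particle, went the other way with 78.6 and 72.1 against 120 and 118 CPM (0.66 ± 0.20, adjusted p = 0.0244), a call that was lost without any 1 of the si-circ235 libraries (adjusted p = 0.0551 to 0.136).

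Other short or abundant groups were lower in part. Clustered histone genes, whose replication-dependent mRNAs mostly lack a poly(A) tail, had 14 of 31 tested members lower (45.2%) and 1 higher, with a median of -0.90 and -0.54 with the trend removed, and 2 were higher without si1a or si2b. H2BC5 had 39.4 and 44.0 CPM under si-circ235-1, 16.2 and 14.4 under si-circ235-2 and 20.1 and 16.2 in NC, so that si-circ235-1 was the group apart. H2AC8 showed the same order, with 14.9 and 15.4, 4.19 and 2.92, and 8.13 and 5.75 CPM. H2BC21, a polyadenylated histone gene, was the higher call (1.53 ± 0.27). NRF2 targets and metallothioneins, which serve redox and metal defence, had 11 of 24 lower (45.8%) and 2 higher, with a median of -0.61 and -0.72 with the trend removed, and 6 lower without si1b. The metallothionein MT1E had 1688 and 2233 CPM under si-circ235-1, 571 and 503 under si-circ235-2 and 823 and 623 in NC (-1.87 ± 0.25, adjusted p = 0.000683). HMOX1, heme oxygenase, was higher, with 395 and 254 against 941 and 810 CPM (1.43 ± 0.25), and NC at 699 and 556. MTF1, the factor that induces metallothioneins, was called higher (0.92 ± 0.24) but not with the trend removed (0.19, adjusted p = 0.418) or without si1b (adjusted p = 0.0791).

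Heat shock chaperones had 5 of 24 members lower and 0 higher, with a median of -0.22 that turned to 0.11 without TMM factors, while with the trend removed 10 were lower and the median was -0.31. HSPB1, a small heat shock protein, had 554 and 611 CPM under si-circ235-1 and 151 and 124 under si-circ235-2 (-2.08 ± 0.26, adjusted p = 0.000563). HSPE1, the mitochondrial cochaperonin, had 53.2 and 93.6 against 21.5 and 21.0 CPM (-1.79 ± 0.26). The number of lower calls was 3 without si1a and 2 without si1b or si2a.

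Chromatin modifiers and remodelers, large proteins that write or remove histone marks or move nucleosomes, formed the list with the highest median. Of 53 tested members 33 were called higher (62.3%) and 1 lower, and the median was 0.98, 0.30 with the trend removed and 1.32 without TMM factors. The median length of their longest transcripts was 8533 nucleotides, against 3354 for all genes, and with the trend removed 19 were higher and 7 lower. Of all genes in both the longest 20% and the middle 20% of GC content, where the medians of this list lie, 54.4% were called higher and 3.55% lower. The median of those genes was 0.78. Histone methylation genes (13 of 21 higher), acetylation genes (9 of 13) and remodelers (11 of 19) all took part. EP300, a histone acetyltransferase, had 21.6 and 19 CPM under si-circ235-1, 87.1 and 95.7 under si-circ235-2 and 24.3 and 33.5 in NC (2.17 ± 0.22, adjusted p = 0.000391). It was 1.46 with the trend removed. SMARCC2 of the SWI/SNF complexes had 8.74 and 5.08 against 76.1 and 77.4 CPM (3.48 ± 0.34), and its exons overlap MYL6 on the opposite strand, which moved the other way (-1.46 ± 0.29) and is named because of this overlap. HDAC2 was the lower call (-0.65 ± 0.18), which was lost without TMM factors (adjusted p = 0.22) and without si1b or si2a (adjusted p = 0.0849 and 0.107). Lower calls numbered 0 without either of these libraries and 4 without si2b.

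The argonaute and microRNA machinery, through which siRNAs themselves act, had 9 of 21 members higher (42.9%) and 3 lower, and its median of 0.46 was 0.12 with the trend removed, where 8 were higher and 6 lower. Most of the rises lay in silencing and mRNA decay (8 of 14). CNOT1, the scaffold of the CCR4-NOT deadenylase, had 59.4 and 33.5 CPM under si-circ235-1, 267 and 327 under si-circ235-2 and 37.0 and 73.8 in NC (2.68 ± 0.35, adjusted p = 0.000643). DROSHA, the nuclease that cuts primary microRNAs, had 41.8 and 34.8 against 124 and 119 CPM (1.67 ± 0.19), with NC at 58.6 and 66.7. The decapping enzyme DCP2 went the opposite way, with 68.7 and 86.2 CPM under si-circ235-1, 16.9 and 28.7 under si-circ235-2 and 27 and 24.9 in NC (-1.76 ± 0.26). Here si-circ235-1 was the group apart, and si-circ235-2 overlapped NC. TARBP2, a partner of DICER1, was lower as well (-1.14 ± 0.24), and RAN was the third lower call.

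Among matrix and adhesion genes, more were called higher than lower under si-circ235-2, fibronectin and a beta integrin among them. Of 26 extracellular matrix and EMT genes 11 were higher (42.3%) and 3 lower, the median being 0.27 and turning to -0.03 with the trend removed, where 6 were higher and 4 lower, and 7 were higher without si1b. FN1, fibronectin, had 30.7 and 31.3 against 118 and 115 CPM (1.91 ± 0.19). It remained called at 1.41 with the trend removed. The collagens COL4A2, at 202 and 151 against 77.2 and 79.4 CPM, and COL6A2, at 358 and 353 against 160 and 136, were lower (-1.17 ± 0.19 and -1.26 ± 0.22), as was VIM, vimentin (-1.21 ± 0.24). Of 29 integrins and matrix proteases 10 were higher and 4 lower, the median being 0.44 and 0.23 with the trend removed, where 8 were higher and 7 lower. ITGB3, the beta 3 integrin, had 2.17 and 1.84 against 11.7 and 14.1 CPM (2.69 ± 0.36). TIMP1, an inhibitor of matrix metalloproteases, was lower, with 1123 and 1382 CPM under si-circ235-1 and 340 and 253 under si-circ235-2 (-2.08 ± 0.27). PLAUR, the urokinase receptor, had 123 and 117 CPM under si-circ235-1 against 52.3 and 41.1 under si-circ235-2 and 40.5 and 39.7 in NC (-1.36 ± 0.19), another gene for which si-circ235-1 stood apart.

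YAP and TGF-beta genes had 11 of 28 members higher (39.3%) and 2 lower, with a median of 0.35 that turned to -0.03 with the trend removed, where 9 were higher and 7 lower, and 6 higher calls without si1b. AMOTL2, a YAP target that also restrains YAP, had 40.3 and 36.6 against 108 and 107 CPM (1.48 ± 0.23, adjusted p = 0.00112). The ligand TGFB1 had 362 and 330 against 167 and 141 CPM (-1.16 ± 0.19), and the transcription factor TEAD4 121 and 112 against 54.1 and 45.1 (-1.23 ± 0.21). In the EGFR and ERK pathway 8 of 37 members were higher and 6 lower, the median being 0.11 and turning to -0.22 with the trend removed, where 8 were higher and 11 lower. Adjacent steps parted here. The kinase MAP2K2 had 873 and 922 CPM under si-circ235-1 and 323 and 254 under si-circ235-2 (-1.64 ± 0.25), and HRAS 255 and 352 against 112 and 87.7 (-1.61 ± 0.28), while the receptor ERBB3 was higher (1.03 ± 0.18).

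Glycolysis, the process that the study ties to circ235, was divided between the siRNAs in a minority of its genes. Of 31 members 9 were lower (29%) and 3 higher, with a median of -0.37. The balance of calls depended on the treatment of the counts, with 13 lower and 1 higher and a median of -0.30 with the trend removed, and 5 lower and 9 higher and a median of -0.03 without TMM factors. PFKFB3, which makes the activator of phosphofructokinase, had 49.6 and 37.5 CPM under si-circ235-1, 179 and 186 under si-circ235-2 and 46.6 and 69.4 in NC (2.07 ± 0.23, adjusted p = 0.000450). PFKL, a subunit of phosphofructokinase itself, had 491 and 449 against 251 and 218 CPM (-1.0 ± 0.22), and the enolase ENO3 32.0 and 31.3 against 14.2 and 11.7 (-1.29 ± 0.27). The related PFKFB2 (0.86 ± 0.18) was not called with the trend removed (0.31, adjusted p = 0.114). The glucose transporters SLC2A1 (0.19 ± 0.23) and SLC2A3, the hexokinase HK2 (0.43 ± 0.22) and LDHA (-0.39 ± 0.23), chosen after their values were seen, did not pass the test. The number of lower calls was 3 without si1a, 2 without si1b and 3 without si2b.

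Among hypoxia genes 10 of 26 were higher (38.5%) and 5 lower, the median being 0.12 and turning to -0.10 with the trend removed, where 5 were higher and 7 lower. Of 7 tested regulators 4 were higher, among them EPAS1 (HIF-2 alpha), with 86.0 and 77.6 against 158 and 155 CPM (0.94 ± 0.17, adjusted p = 0.00218). With the trend removed 1 regulator was higher and 1 lower, their median moved from 0.56 to -0.05, and EPAS1 was at 0.37. Targets went both ways, with 6 of 19 higher and 5 lower, ANGPTL4 among the latter. P4HA1, a collagen prolyl hydroxylase, was lower (-0.81 ± 0.20), a call that was lost without TMM factors (adjusted p = 0.125) and without si1a (adjusted p = 0.0639). The higher calls numbered 5 without si1b or si2a, and the lower calls 2 without the first of these and 3 without the second or without si1a.

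Interferon-stimulated genes and sensors of double-stranded RNA, which transfected RNA can engage, had 8 of 31 members lower and 5 higher, with a median of -0.34 that turned to 0.01 without TMM factors and was -0.50 with the trend removed, where 10 were lower and 2 higher. Without si1b, 4 were lower and 2 higher. IFITM3, which blocks viral entry, had 603 and 733 CPM under si-circ235-1, 191 and 140 under si-circ235-2 and 646 and 395 in NC (-2.02 ± 0.27, adjusted p = 0.000714). IFI6 had 20.8 and 29 against 6.55 and 5.26 CPM (-2.08 ± 0.28). OAS3, an oligoadenylate synthetase, had 33.9 and 34.9 against 89.0 and 95.2 CPM (1.42 ± 0.18), and MAVS, the adaptor of the RIG-I pathway, 77.5 and 80.6 against 186 and 201 (1.29 ± 0.18). Genes of this list thus moved both ways, and IFIT1, IFIT2, IFIT3 and IFIH1 were not called. Among NF-kB genes and cytokines 9 of 28 were lower (32.1%) and 5 higher, with a median of -0.22 that turned to 0.11 without TMM factors and was -0.27 with the trend removed, and 0 were higher without si1b. NFKBIE, an inhibitor of NF-kB, had 102 and 110 against 39.5 and 36 CPM (-1.49 ± 0.22). TNFAIP2 (1.07 ± 0.23) and the growth factor CSF1 (0.95 ± 0.25) were higher, with adjusted p of 0.0585 and 0.0778 without si1b.

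Genes of DNA replication had 9 of 42 members lower and 6 higher, with a median of -0.04 that turned to 0.29 without TMM factors and to 0.05 without si2b, while with the trend removed 18 were lower and 5 higher and the median was -0.29. GINS4, a subunit of the replicative helicase, had 4.69 and 2.85 CPM under si-circ235-1 and 20.9 and 19.1 under si-circ235-2 (2.42 ± 0.33, adjusted p = 0.000772). Its partner GINS2 had 109 and 116 against 58.2 and 49.4 CPM (-1.07 ± 0.19), so subunits of 1 complex moved in opposite directions. POLA1, the polymerase of primer synthesis, was higher (1.73 ± 0.32) and POLD2, a subunit of polymerase delta, lower (-1.27 ± 0.22). The higher calls numbered 2 without si1b and 3 without si2b.

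Mitosis genes had 9 of 42 lower and 7 higher, with a median of -0.22 that turned to 0.13 without TMM factors and 0.12 without si2a, while with the trend removed 11 were lower and 4 higher and the median was -0.32. The checkpoint kinase BUB1B had 21.3 and 17.8 against 55.0 and 62.6 CPM (1.59 ± 0.22), and the phosphatase CDC25B 246 and 209 against 545 and 453 (1.13 ± 0.20), with NC at 578 and 548. The kinetochore protein SPC25 (-1.11 ± 0.21) and BIRC5, survivin (-1.0 ± 0.21), were lower. Without si1b there were 2 calls each way, without si1a there were 5 lower calls, and without si2b there were 20. Of 32 genes of G1 and arrest 6 were lower and 5 higher, with a median of -0.07 that turned to 0.26 without TMM factors and 0.02 without si1a and was -0.19 with the trend removed. E2F3 (1.51 ± 0.23) and CDK2 (1.02 ± 0.20) were higher, and the inhibitor CDKN2C (-1.09 ± 0.20) lower. The cyclin CCND2 (-0.95 ± 0.24) lost its call without TMM factors (adjusted p = 0.083) and without si1b or si2b (adjusted p = 0.053 and 0.0558). The lower calls of this list were 3 without si1a or si2b and 2 without si1b, when 3 were higher.

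Stress responses were divided too. Of 28 ATF4 and amino acid stress genes 6 were higher and 6 lower, with 3 each way without si1b, and the median of -0.10 turned to 0.04 with the trend removed (3 higher and 7 lower), 0.23 without TMM factors and 0.03 without si2b. SLC7A5, a transporter of large amino acids, had 577 and 331 against 1164 and 1164 CPM (1.36 ± 0.27, adjusted p = 0.00292), while PHGDH and SHMT2 of serine and glycine synthesis were lower (-1.26 ± 0.23 and -1.04 ± 0.20). EIF2AK4, the amino acid sensor GCN2, was 0.94 ± 0.19 and 0.29 with the trend removed (adjusted p = 0.101). Of 23 genes of endoplasmic reticulum folding 6 were higher and 7 lower, the median being 0.04 and turning to -0.23 with the trend removed and -0.12 without si1b or si2a. The sensors and factors were higher in 3 of 4, including ATF6, with 24.8 and 22 against 74.6 and 64.2 CPM (1.57 ± 0.21), and the chaperones lower in 7 of 19, of which 4 lower calls were left without si1b. CREB3L2 was higher (2.02 ± 0.27), and SEC61B (-1.27 ± 0.20) and SDF2L1 (-1.56 ± 0.27) were lower.

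Cholesterol synthesis genes had 7 of 26 members called each way, with a median of 0.03 that turned to -0.00 with the size factors of DESeq2 and was 0.00 with the trend removed, and 3 higher calls without si1b. The cyclase LSS had 19 and 10.1 CPM under si-circ235-1 and 49.6 and 49.0 under si-circ235-2 (1.77 ± 0.31). The mevalonate enzymes MVD, with 402 and 456 against 178 and 144 CPM (-1.42 ± 0.27), and PMVK (-1.22 ± 0.24) were lower. Of 41 lysosome and autophagy genes 11 were higher and 12 lower, the median being 0.03 and turning negative with the trend removed (-0.20, where 7 were higher and 15 lower), with the size factors of DESeq2 (-0.00), without si1b (-0.14) and without si2a (-0.03). NPC1, the membrane protein that exports cholesterol from lysosomes, had 74.1 and 54.7 against 175 and 174 CPM (1.44 ± 0.23), and its soluble partner NPC2 400 and 315 against 157 and 110 (-1.42 ± 0.24). The protease CTSD was lower (-1.92 ± 0.30) and the autophagy receptor NBR1 higher (1.15 ± 0.18). Without si1b, 5 were higher and 6 lower, and the lower calls were 6 without si1a and 5 without si2b.

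Genes of RNA and protein synthesis outside the ribosome itself moved both ways. Of 37 tRNA synthetases 11 were higher and 7 lower, the median being 0.20 and turning to -0.05 with the trend removed. HARS2 of mitochondria had 4.76 and 5.02 CPM under si-circ235-1, 19.4 and 18.1 under si-circ235-2 and 15.3 and 15.8 in NC (1.94 ± 0.24), with exons shared with ZMAT2 on the same strand and HARS1 on the other. LARS2 was higher as well (1.39 ± 0.21), and SARS1 and VARS1 were lower (-1.25 ± 0.21 and -0.98 ± 0.20). Without si1b, 4 were higher and 3 lower, and 4 were lower without si1a. Ribosome biogenesis had 9 of 39 higher and 11 lower, with a median of -0.11 that turned to 0.23 without TMM factors and 0.02 without si1a and was -0.21 with the trend removed. RRN3, the initiation factor of RNA polymerase I, had 6.51 and 2.40 against 35.5 and 41.3 CPM (3.13 ± 0.47), and the helicase DDX21 was higher (1.60 ± 0.27). The small nucleolar RNA proteins NOP10 (-2.02 ± 0.25) and FBL (-1.58 ± 0.23) were lower. Leaving out any 1 si-circ235 library left 4 to 7 lower calls, and leaving out si1b left 4 higher calls.

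Of 42 spliceosome and SR protein genes 15 were lower (35.7%) and 9 higher, with a median of -0.21 that turned to 0.13 without TMM factors and was -0.17 with the trend removed. The Sm protein SNRPD3 had 229 and 290 against 98.1 and 89.9 CPM (-1.47 ± 0.21), and SF3B6 175 and 197 against 58.9 and 61.0 (-1.63 ± 0.18). SF3A1 (1.59 ± 0.19) and SF3B4 (1.34 ± 0.20), which belong to the same U2 particle as SF3B6, were higher. The higher calls were 4 without si1b or si2b. Small nucleolar RNA host genes had 6 of 25 lower and 2 higher, with a median of -0.43 and -0.20 with the trend removed. SNHG17 had 63.3 and 69.4 against 32.4 and 28.6 CPM (-1.12 ± 0.21), and SNHG4, which shares exons with MATR3, was higher (3.29 ± 0.42). SNHG26 (1.61 ± 0.44) was not called without si1a or si2a (adjusted p = 0.0694 and 0.0919), which leaves 1 higher call each, and SNHG19 (-1.92 ± 0.41) was not called without si1b (adjusted p = 0.0634), when 1 of the list was lower, against 3 without si2b.

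Alpha and beta tubulins had 3 of 11 members called each way and a median of -0.40, or -0.26 with the trend removed. TUBA4A was lower (-0.88 ± 0.18), with 103 and 108 against 62.8 and 51.8 CPM, as was TUBB2A (-1.06 ± 0.25), whose adjusted p was 0.0639 without si1a, when 1 tubulin was lower. TUBA1B was higher (0.99 ± 0.29), but its si-circ235-1 libraries were far apart, at 139 and 65.3 CPM, and it was not called without si1b (0.55, adjusted p = 0.127). TUBB4A was split in the same way, with 10.1 and 1.45 CPM under si-circ235-1 (1.73 ± 0.60), and was not called without that library (0.90, adjusted p = 0.101), with DESeq2 (adjusted p = 0.185), with the replicate number as a block (adjusted p = 0.0559), in the 4 si-circ235 libraries alone (adjusted p = 0.0924) or without either NC replicate (adjusted p = 0.063 and 0.0508). The higher calls of tubulins were 0 without si1b and 1 without either NC library.

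Zinc finger genes of chromosome 19, a large family of DNA-binding repressors, had 31 of 215 tested members higher (14.4%) and 16 lower (7.44%), and a median of 0.06 that turned to -0.10 with the trend removed and -0.02 without si2b. ZNF587 had 8.95 and 8.48 against 30.6 and 27.4 CPM (1.73 ± 0.25), and ZNF699 0.350 and 0.614 against 4.84 and 4.97 (3.30 ± 0.48). ZNF428 (-1.84 ± 0.31) and ZNF653 (-1.80 ± 0.34) were lower. Without si1b, 17 were higher and 6 lower, and without si2b, 25 were lower. Chromosome 19 as a whole had the lowest median of the autosomes and X, at -0.21, with 154 of 1092 genes higher (14.1%) and 293 lower (26.8%). The highest median was 0.22, on chromosome 15. With the trend removed the median of chromosome 19 was -0.19 and chromosome 22 was lowest, at -0.23.

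Among epithelial markers, KRT18 and its usual partner KRT8 parted. KRT18 had 2266 and 2307 CPM under si-circ235-1 and 1194 and 939 under si-circ235-2 (-1.10 ± 0.26, adjusted p = 0.00799), with an adjusted p of 0.0611 without si1b. KRT8, chosen after its values were seen, was not called (0.39 ± 0.25, adjusted p = 0.243), and the genes overlap on opposite strands. CD44, a hyaluronan receptor, had 595 and 643 against 1165 and 994 CPM (0.80 ± 0.21), was 0.19 with the trend removed (adjusted p = 0.34) and lost its call without si1a, si1b or si2a (adjusted p = 0.0655 to 0.0802).

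Of 1381 long noncoding RNA genes 216 were higher (15.6%) and 129 lower (9.34%), beside 2683 of 12192 protein-coding genes higher (22%) and 2414 lower (19.8%). The median of the long noncoding RNA genes was 0.17, and 0.31 with the trend removed. CYTOR, a long noncoding RNA of the cytoskeleton, had 45.3 and 89.0 CPM under si-circ235-1, 16.9 and 15.9 under si-circ235-2 and 37.9 and 21.8 in NC (-2.04 ± 0.34, adjusted p = 0.00144). ZDHHC12-DT (-1.68 ± 0.30) was the next largest fall after CYTOR and SNHG19 within the limits given next. Among those with a gene symbol that averaged 5 CPM or more, the largest rises, PRR11-AS1 (3.06 ± 0.44), PAPLN-AS1 (2.17 ± 0.35) and HERPUD2-AS1 (2.14 ± 0.37), overlap the protein-coding genes of their names on the opposite strand, and without strand their reads cannot be told from those of these genes.

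The sequences shown at the start were then followed in 3′ UTRs. An siRNA that lies no further than 20 nucleotides from the junction on each side has its seed match among the 34 words of 7 letters in that window. Across 12145 genes with an annotated 3′ UTR, 198 to 2561 genes held a given word. For all 34 words the median log2 fold change of genes with the word was above that of genes without it, by 0.10 to 0.35, and with the trend removed by -0.08 to 0.16 (above 0 for 31 words). Genes with a word also had longer 3′ UTRs, with medians of 2384 to 3337 nucleotides against 1089 to 1325 without it. Genes with the 7-letter match of the miR-330-5p seed, CCCAGAG, numbered 2490 and had a median of 0.25, against -0.04 in the 9655 genes without it. Of those with the match 29.8% were called higher and 13.4% lower, against 20 and 21.5% of those without. Their 3′ UTRs were longer, with a median of 2544 against 1120 nucleotides, and with the trend removed the medians were -0.07 and -0.13. A match is a description of the letters in a UTR and does not show that a site is bound.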

How the data were processed

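Each of the 3 siRNAs (NC, si-circ235-1, si-circ235-2) gave 2 libraries of mRNA selected on oligo dT beads, sequenced without strand. The authors deposited raw gene-level counts, whole and not normalized. The submitters' processing notes name FastQC, cutadapt, STAR and hg38, the counter and the annotation being not given in the sources used here. Reads of overlapping genes or near-identical copies may thus be split.

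Conditions and replicate numbers came from the labels. Symbols, coordinates, lengths, GC content (both of the longest transcript) and 3′ UTRs were read from the GRCh38 annotation of GENCODE release 29, which held 99.5% of the 58288 deposited identifiers, and the miRNA from RefSeq (GRCh38.p14).

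The test was that of edgeR 4.0.16 under R 4.3.3 (filterByExpr, TMM, quasi-likelihood test on 1 mean per condition over all 6 libraries, 3 residual degrees of freedom, Benjamini-Hochberg adjustment over 14415 genes, threshold 0.05). CPM are after TMM, and errors of fold changes are standard errors with n = 2 per condition. Fold changes of genes with few counts depend on the prior count. The libraries held 15373992 to 19912893 counts, and 2 libraries per condition limit the precision.

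Alternatives were DESeq2 1.42.0, other or no scaling factors, no filter, a 2-fold threshold, a fit to the 4 si-circ235 libraries alone, a block for the replicate number, omission of each library in turn, and removal of a trend over length and GC content (splines with 5 degrees of freedom each). The model was tested on simulated counts, with 5 simulations per size of change. In each, 200 of 14415 genes were changed and no length trend separated the siRNAs, unlike in these data. Of changes of 0.5, 1 and 2 on the log2 scale, 0, 24.7 and 84.9% were recovered. False calls averaged 1 of 1, 6 of 55.4 and 13 of 182.8 calls.

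Named genes were CCNY, SLC16A3, PAK4 and CPNE1, then the 12 largest rises and falls of genes averaging 5 CPM or more and the 6 largest of those averaging 100 CPM or more, among called protein-coding genes whose siRNA libraries did not overlap, the 3 largest of each kind among lncRNA genes with a symbol and at least 5 CPM, and the 2 members of lowest p in each direction from each list. Genes and the 31 process lists and 4 marker lists were chosen with earlier results of these data known. H19, caught by the name pattern for histones, was taken out of that list later. Some genes that this rule names are not reported here.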

Additional observations from a re-analysis of the deposited data

How the results depend on the processing

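The number of called genes (5725, of which 3047 higher and 2678 lower) stayed within 1.5 times under DESeq2, other scaling factors, no filter on low counts, the 4 si-circ235 libraries alone and removal of the length and GC trend. Without TMM factors 1496 genes were called lower. At a difference of at least 2-fold, 3397 genes were called, 1898 higher and 1499 lower. With 1 library left out, the calls ranged from 2755 to 5556, the higher from 1489 to 2938 and the lower from 1266 to 2713. All 3 lowest values came without si-circ235-1 replicate 2.

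With the replicate number as a block, 6043 genes were called, 3142 higher and 2901 lower. The deviations of same-numbered libraries correlated at 0.139 between the siRNAs, -0.0943 between NC and si-circ235-1 and 0.149 between NC and si-circ235-2. With 2 libraries per condition, these values cannot tell whether same-numbered libraries shared a culture or batch. The labels give only the number.

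Of the 155 named genes, CCNY was reversed without TMM factors (0.048). Of the others, 5 lost their call without TMM factors, 10 with the trend removed, 1 each with DESeq2, the block and the 4 si-circ235 libraries alone, and 19 without si-circ235-1 replicate 2. CCNY passed the threshold with the trend removed (-0.76). The median of 9 of 31 lists changed sign without TMM factors and that of 9 with the trend removed. The cause of these changes was not tested.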
